A study of Homo sapiens with 19 samples.

Results

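The 48 genes described here encode the enzymes and carriers of the urea cycle and of amino acid breakdown, and were taken by gene symbol from a fixed list out of 34825 symbols in each of 2 expression tables. All 48 were present. They were measured by mRNA sequencing of HepG2, an established liver cancer cell line, in 19 libraries. In the first experiment cells received 50 nM of the control siRNA labelled NTG, of siINO80#1 or of siINO80#2, with 3 libraries each (A, B and C). In the second experiment cells received 1 uM EPZ-6438, an inhibitor of the histone methyltransferase EZH2, or its vehicle DMSO from 3 days before the siRNA, and then NTG or siMCRS1 at the same dose. This gave 2 libraries of DMSO with NTG, 3 of DMSO with siMCRS1, 3 of EPZ-6438 with NTG and 2 of EPZ-6438 with siMCRS1, and all cells were harvested 72 h after transfection. INO80 is the ATPase of the INO80 chromatin remodelling complex and MCRS1 is another subunit of it. The question the design poses is how expression changes when either subunit or H3K27 methylation is reduced. The siRNAs left part of the message: INO80 averaged 1264 normalized counts in NTG, 608 with siINO80#1 and 459.6 with siINO80#2 (n = 3 each), and MCRS1 averaged 1429.7 in DMSO NTG (n = 2) and 114 with siMCRS1 (n = 3). MCRS1 was targeted with 1 siRNA label only, so an effect of that reagent cannot be told apart from an effect of the target.

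Amino acids that are not used for protein lose their nitrogen by transamination and deamination, and the liver turns the released ammonia into urea. The cycle starts in mitochondria, where CPS1 and OTC build citrulline, and continues in the cytosol, where ASS1, ASL and ARG1 form urea and return ornithine. The carbon skeletons of tyrosine, tryptophan, methionine, proline, histidine, glycine, lysine and the branched-chain amino acids are degraded by dedicated enzymes, many of which are abundant in hepatocytes and low in other tissues. HepG2 cells are known for low OTC and ARG1 and for little urea formation.

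The promoters of OTC, BHMT and PRODH2, which fell deeply, and of the MAT and arginase isozyme pairs are shown because the members otherwise share only their function. They are examples. GNMT and AGXT fell more than PRODH2 with both INO80 siRNAs, and the balance of GOT1 and GOT2 also moved, but their windows are not shown. RefSeq promoter windows of 300 bases (250 before the start and 50 after it, build GRCh38.p14) were found for 43 of the 48 members, with 55 windows in all. The windows shown are OTC at chrX:38352354-38352653 (plus strand), BHMT at chr5:79111559-79111858 (plus strand), PRODH2 at chr19:35812796-35813095 (minus strand), MAT1A at chr10:80289609-80289908 (minus strand), MAT2A at chr2:85538918-85539217 (plus strand), ARG1 at chr6:131572976-131573275 (plus strand) and ARG2 at chr14:67619670-67619969 (plus strand). Capitals mark exact matches, on either strand, to the TATA box TATAAA, to CCAAT, to the HNF1 half-site GTTAAT or to the HNF4-related AAAGTCCA.
OTC: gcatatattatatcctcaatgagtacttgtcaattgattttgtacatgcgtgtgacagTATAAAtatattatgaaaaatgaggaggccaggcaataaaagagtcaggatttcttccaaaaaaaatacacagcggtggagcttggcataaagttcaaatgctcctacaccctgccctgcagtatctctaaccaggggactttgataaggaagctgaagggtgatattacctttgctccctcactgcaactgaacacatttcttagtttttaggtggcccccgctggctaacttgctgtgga
BHMT: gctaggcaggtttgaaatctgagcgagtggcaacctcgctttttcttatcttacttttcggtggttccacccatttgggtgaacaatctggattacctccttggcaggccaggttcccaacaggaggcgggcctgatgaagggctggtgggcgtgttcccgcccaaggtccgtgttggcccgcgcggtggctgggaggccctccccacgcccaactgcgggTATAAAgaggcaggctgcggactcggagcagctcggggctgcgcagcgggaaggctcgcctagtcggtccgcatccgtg
PRODH2: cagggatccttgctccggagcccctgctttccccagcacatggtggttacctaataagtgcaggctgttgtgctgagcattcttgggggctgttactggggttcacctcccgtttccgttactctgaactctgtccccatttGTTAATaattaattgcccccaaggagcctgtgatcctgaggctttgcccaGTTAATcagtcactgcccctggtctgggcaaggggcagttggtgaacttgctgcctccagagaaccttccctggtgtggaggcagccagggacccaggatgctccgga
MAT1A: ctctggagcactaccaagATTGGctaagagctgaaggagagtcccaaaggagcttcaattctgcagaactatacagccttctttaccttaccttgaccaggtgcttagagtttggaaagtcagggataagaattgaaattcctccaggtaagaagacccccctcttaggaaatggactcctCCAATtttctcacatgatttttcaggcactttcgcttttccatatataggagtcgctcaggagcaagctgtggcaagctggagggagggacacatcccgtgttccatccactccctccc
MAT2A: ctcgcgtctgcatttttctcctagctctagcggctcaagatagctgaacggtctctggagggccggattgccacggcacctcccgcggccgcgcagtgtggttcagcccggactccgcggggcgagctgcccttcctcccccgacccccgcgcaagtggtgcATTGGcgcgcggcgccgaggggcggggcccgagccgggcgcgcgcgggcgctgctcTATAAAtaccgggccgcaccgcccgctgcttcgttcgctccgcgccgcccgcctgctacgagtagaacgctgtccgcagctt
ARG1: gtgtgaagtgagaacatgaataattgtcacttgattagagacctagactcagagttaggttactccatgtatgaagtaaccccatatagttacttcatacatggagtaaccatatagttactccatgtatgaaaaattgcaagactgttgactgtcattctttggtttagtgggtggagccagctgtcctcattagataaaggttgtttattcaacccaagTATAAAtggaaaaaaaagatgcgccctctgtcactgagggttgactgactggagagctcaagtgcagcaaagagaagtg
ARG2: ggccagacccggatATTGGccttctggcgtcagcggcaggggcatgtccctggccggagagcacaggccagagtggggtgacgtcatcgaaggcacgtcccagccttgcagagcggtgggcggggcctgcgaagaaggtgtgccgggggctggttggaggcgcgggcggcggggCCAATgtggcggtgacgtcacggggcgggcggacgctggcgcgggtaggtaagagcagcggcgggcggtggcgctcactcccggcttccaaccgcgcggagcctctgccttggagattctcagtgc
TATAAA stood 29 bases before the start in BHMT and in ARG1, 32 bases before it in MAT2A and 192 bases before it in OTC. The PRODH2 window held GTTAAT at 108 and 58 bases before the start. The windows of the liver forms MAT1A and ARG1 held 3 and 1 CpG, against 43 and 31 in those of the widely expressed forms MAT2A and ARG2. BHMT had 21 CpG, and OTC had 3. TATAAA was found in 16.4% of the members' 55 windows and in 11.5% of all 35116 RefSeq windows, CCAAT in 50.9% and 34.6%, GTTAAT in 7.27% and 6.88%, and AAAGTCCA in 5.45% and 1.14%. The members' windows had a median of 21 CpG against 14 over all windows. All windows belong to 27305 symbols and were not matched to the members, and some members have several windows, each counted. AAAGTCCA stood in only 3 of the members' windows. A match describes letters in these windows and not a bound site, and no binding was measured in these libraries.

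In their control libraries the members covered a wide range. Per kilobase of transcript, GLUD1, the glutamate dehydrogenase that releases ammonia, stood highest with 4336 normalized counts in NTG, followed by HPD with 3414 and AHCY with 2484. Among the urea cycle enzymes the order in NTG was ASS1 (600.6 per kilobase), ASL (578), ARG2 (412), CPS1 (109), NAGS (87.2), OTC (42.6) and ARG1 (30.5). ASS1 and ASL overlapped across libraries (515 to 710.0 and 548 to 636), as did OTC and ARG1 (37.1 to 50.5 and 9.93 to 43.2). TDO2, the first enzyme of tryptophan breakdown, was at 0 to 3.15 normalized counts in all 19 libraries and is near the level of single reads. In the first experiment 3 reads corresponded to 2.30 to 3.58 normalized counts, in the second to 2.13 to 4.30, and libraries held 17093574 to 25369547 and 26038505 to 47397233 reads. Testing was limited to genes whose mean over an experiment reached 10 normalized counts, which left 44 members in the first experiment (without TDO2, UROC1, SDS and AGXT2) and 45 in the second (without TDO2, KMO and SDS). The siINO80#2 library lettered C stood apart from its replicates, with a chi-square per degree of freedom of 84.3 and 121 against A and B over all genes, where A and B gave 18.7 between them and other pairs of that experiment 9.45 to 13.2.

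With either INO80 siRNA the amino acid genes were mostly lower. With siINO80#1, 3 of the 48 members were called higher and 26 lower (limma, Benjamini-Hochberg adjusted p under 0.05 over all 14034 genes tested), beside 20.7% of all genes called higher and 20.8% lower. With siINO80#2, 3 were called higher and 33 lower, beside 26.6% and 28.4% of all genes. Leaving out its library C gave 3 higher and 32 lower. The median log2 change of the tested members was -0.58 with siINO80#1 and -0.79 with siINO80#2, while the median of all genes tested was 0.000946 and 1.58e-05. Both siRNAs were compared with the same NTG libraries. With siMCRS1 in DMSO, 4 members were called higher and 25 lower, with a median of -0.73, beside 23.1% and 24.6% of 14312 genes. Without the DMSO NTG library numbered 1 the lower calls were 16, and without that numbered 3 the higher calls were 2. With siMCRS1 in EPZ-6438, 7 were called higher and 26 lower, with a median of -0.85, beside 26.8% and 26.9% of all genes. Leaving out the EPZ-6438 NTG library numbered 3 gave 3 higher calls, and leaving out either EPZ-6438 siMCRS1 library gave 4. With libraries set to the same total the higher calls of siMCRS1 went from 4 to 1 in DMSO (CPS1, KYNU and CTH lost) and from 7 to 3 in EPZ-6438, and the lower calls to 30 in each. The lower counts include members that passed the filter on low values only through groups other than the one called lower. These were OTC and GNMT in every siRNA comparison and UROC1 and AGXT2 with siMCRS1. ARG1 with siINO80#2, and PRODH with siINO80#1 and with siMCRS1 in EPZ-6438, were also among them. In these bulk cultures fewer cells of a kind and less RNA per cell cannot be told apart. Setting all libraries to the same total moved the median of all genes by -0.23 in both siMCRS1 comparisons and by -0.11 with siINO80#2, so directions of small changes are relative to that median.

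**Figure D1:**
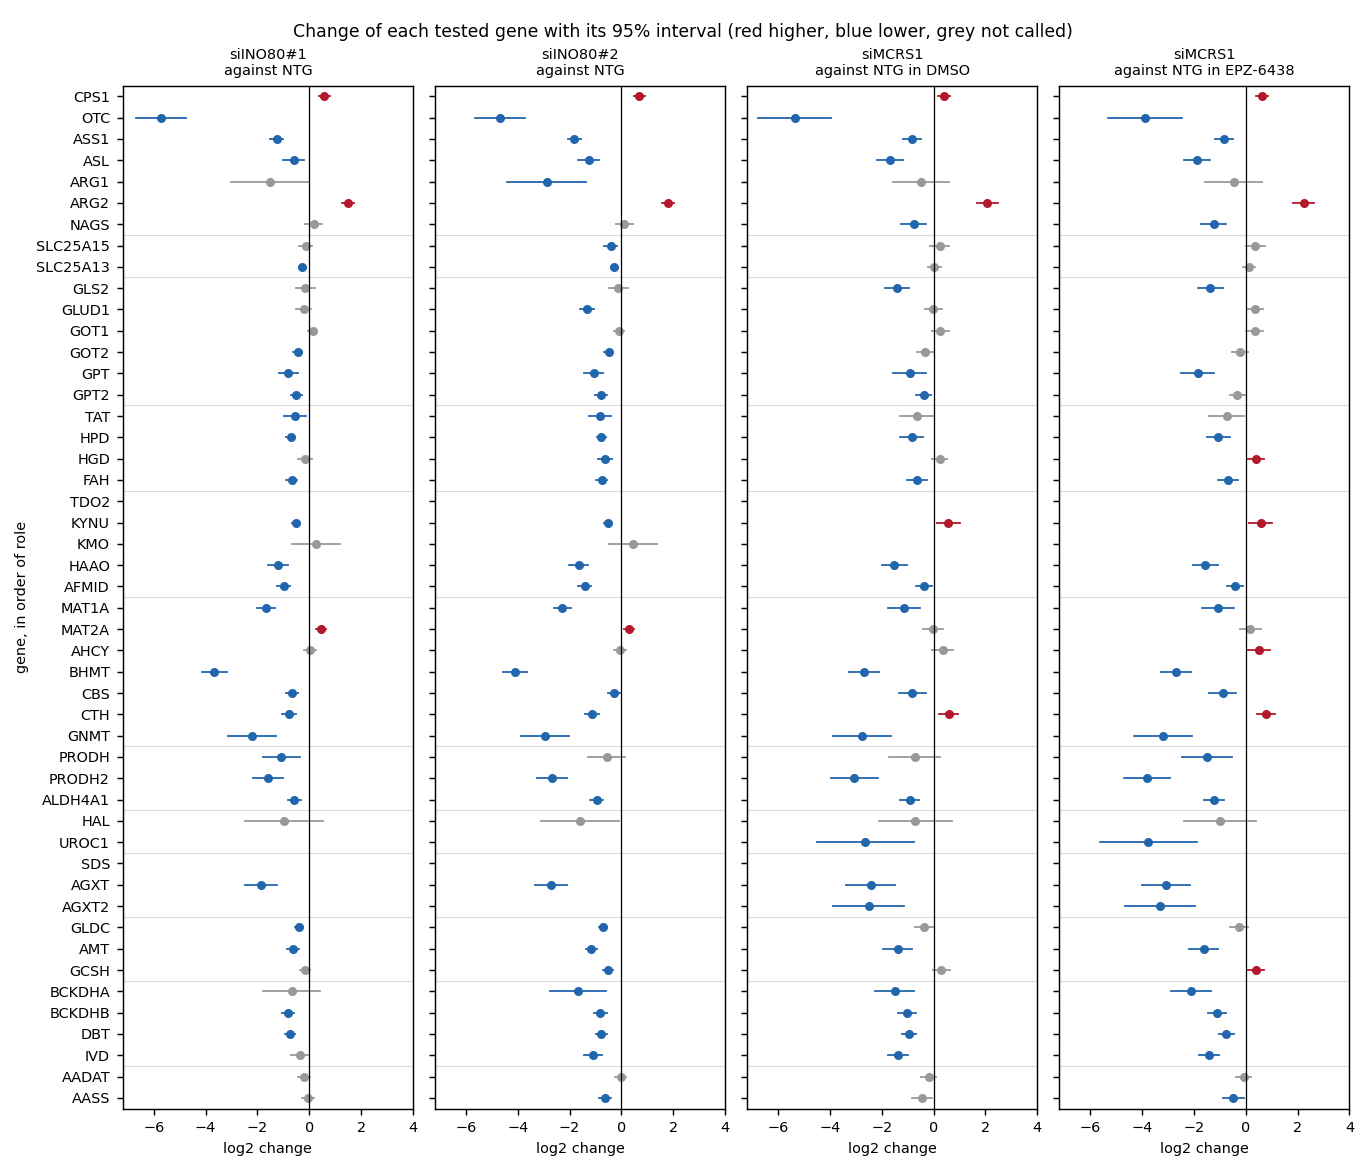
The log2 change of each tested gene (points) with its 95% interval (lines) is plotted for the 4 siRNA comparisons, with genes from top to bottom in order of role and red for higher, blue for lower and grey for not called. Points lie mostly left of 0, with medians of -0.58, -0.79, -0.73 and -0.85 from left to right, and ARG2 and CPS1 lie to the right in every panel.

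Across the 4 siRNA comparisons 18 members were called lower in each, beside 11.4% of the 13534 genes tested in both experiments: OTC, ASS1, ASL, GPT, HPD, FAH, HAAO, AFMID, MAT1A, BHMT, CBS, GNMT, PRODH2, ALDH4A1, AGXT, AMT, BCKDHB and DBT. Of these, OTC and GNMT passed the filter on low values only through their control libraries, which fixed the direction of any call. CPS1 and ARG2 were called higher in each of the 4 comparisons, beside 11.4% of the 13534 genes. By limma GOT1, KMO, HAL and AADAT were called in none of those in which they were tested, while edgeR and DESeq2 called HAL with siINO80#2. HGD, KYNU, CTH and GCSH were called lower with an INO80 siRNA and higher with siMCRS1 in at least 1 treatment. Comparisons of the same experiment and treatment share controls, the 2 experiments do not, and these counts set calls side by side and test no difference between the targets. Of the 26 members lower with siINO80#1, 19 were also lower with siMCRS1 in DMSO, which is 73.1% of the first list and 76.0% of the second. Of all genes tested in both experiments, 1850 were lower in this pair of comparisons, which is 63.4% and 53.9% of the genes lower in each.

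**Figure D2:**
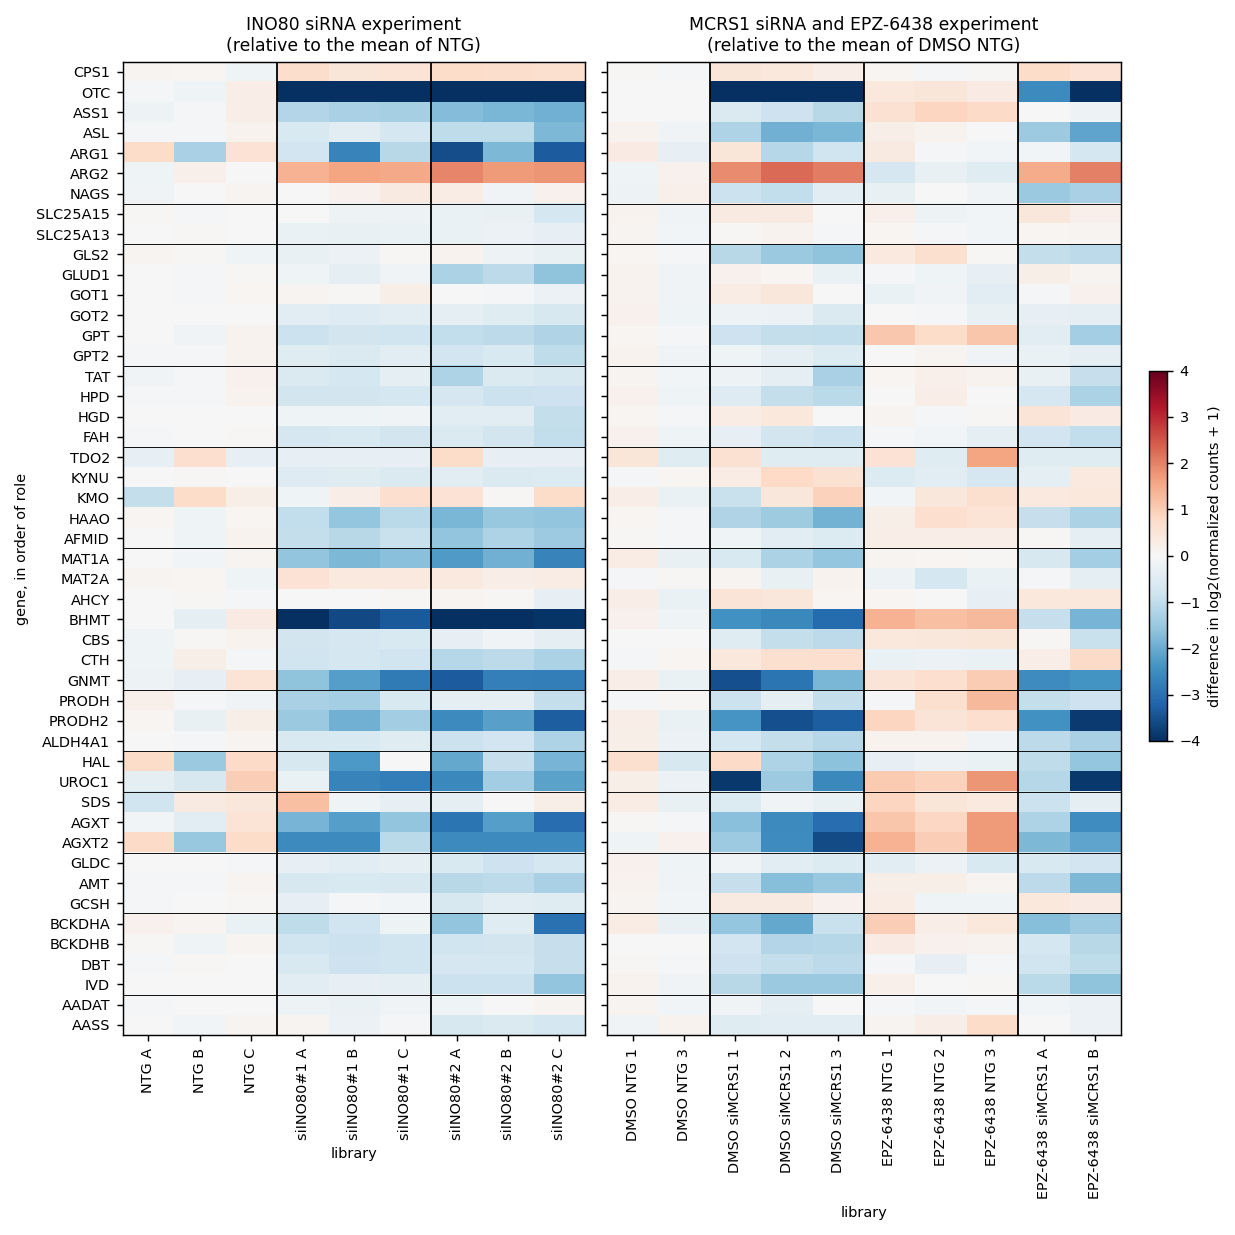
Colour gives the difference in log2(normalized counts + 1) of each gene (rows, in order of role) in each library (columns) from the mean of the NTG libraries (left) or the DMSO NTG libraries (right), cut at -4 and 4. OTC, BHMT, GNMT, PRODH2 and AGXT are blue in every siRNA library, ARG2 is red, and ARG1 and HAL are low in the NTG library lettered B.

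In the urea cycle OTC fell most deeply, the cytosolic ASS1 and ASL fell less, and CPS1 and ARG2 rose. OTC, which joins carbamoyl phosphate to ornithine, was at 61.3, 56.5 and 76.8 normalized counts in NTG, at 0, 0 and 0.875 with siINO80#1 and at 2.24, 1.53 and 0.945 with siINO80#2. With DMSO, OTC was at 96.7 and 98.3 in NTG and at 3.34, 2.20 and 0 with siMCRS1, and with EPZ-6438 at 130.4, 136 and 123 and at 16.0 and 3.55. Every siRNA library lay far below every control library, and most of them held 3 reads or fewer. The siINO80#1 libraries held 1 read together against 190 in NTG, a ratio of 195 with a counting interval of 34.6 to 7747. On the log2(value + 1) scale, which understates changes of low genes, OTC changed by -5.73 ± 0.44 (adjusted p = 5.75e-06) with siINO80#1, -4.70 ± 0.44 (adjusted p = 9.11e-06) with siINO80#2, -5.36 ± 0.64 (adjusted p = 0.000113) with siMCRS1 in DMSO and -3.89 ± 0.64 (adjusted p = 0.000502) under EPZ-6438, each ± SE. OTC passed the filter on low values only through its control libraries.

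ASS1, which joins citrulline to aspartate, fell in all 4 comparisons. ASS1 was at 789.6, 883 and 1088 normalized counts in the NTG libraries, at 402, 374 and 365 with siINO80#1 and at 273, 257 and 242 with siINO80#2. With DMSO, ASS1 was at 819.5 and 804 in NTG and at 542, 455 and 374 with siMCRS1, and with EPZ-6438 at 1227, 1475 and 1389 and at 809 and 704. Treated and control libraries of the same comparison did not overlap. The ASS1 log2 changes were -1.26 ± 0.12 and -1.82 ± 0.12 with siINO80#1 and siINO80#2 and -0.84 ± 0.16 and -0.85 ± 0.16 with siMCRS1 under DMSO and EPZ-6438. ASS1 has 14 named pseudogenes in RefSeq, and reads shared with them could be divided between copies. ASL splits argininosuccinate into arginine and fumarate. ASL was at 1179, 1172 and 1361 normalized counts in the NTG libraries, at 806, 894 and 759 with siINO80#1 and at 613, 616 and 353 with siINO80#2. With DMSO, ASL was at 1615 and 1317 in NTG and at 615, 383 and 407 with siMCRS1, and with EPZ-6438 at 1726, 1608 and 1438 and at 534 and 341. Each siRNA library was below each matching control library, and the siINO80#2 library lettered C was the lowest of the first experiment. The ASL log2 changes were -0.59 ± 0.18 and -1.27 ± 0.18 with siINO80#1 and siINO80#2 and -1.67 ± 0.23 and -1.89 ± 0.23 with siMCRS1 under DMSO and EPZ-6438, all called, with an adjusted p of 0.0244 for siINO80#1, which was the weakest. For ASL the siINO80#1 call call was lost without siINO80#1 A, NTG C or siINO80#1 C (adjusted p from 0.0625 to 0.089). Here and below a library left out is named by its group and its letter or number. The siINO80#2 change of ASL was -1.01 without library C.

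ARG2, the mitochondrial arginase, rose in all 4 comparisons and by more than any other member. ARG2 was at 690.4, 896 and 778 normalized counts in the NTG libraries, at 2064, 2333 and 2225 with siINO80#1 and at 3066, 2538 and 2654 with siINO80#2. With DMSO, ARG2 was at 935 and 1205 in NTG and at 3942, 5104 and 4347 with siMCRS1, and with EPZ-6438 at 669, 857 and 763 and at 2951 and 4324. No siRNA library overlapped its controls. The ARG2 log2 changes were 1.49 ± 0.11 (adjusted p = 3.43e-06), 1.81 ± 0.11 (adjusted p = 4.79e-07), 2.06 ± 0.18 (adjusted p = 2.53e-05) and 2.23 ± 0.18 (adjusted p = 1.06e-05) for the INO80 siRNAs #1 and #2 and for siMCRS1 under DMSO and EPZ-6438, in that order. ARG2 overlaps GPHN and VTI1B in the annotation, and use of strand in counting is not given in the sources used here. CPS1, which makes carbamoyl phosphate and is the entry of ammonia into the cycle, rose by less. CPS1 was at 670.3, 660.1 and 553 normalized counts in the NTG libraries, at 1025, 871 and 923 with siINO80#1 and at 1051, 1025 and 967 with siINO80#2. With DMSO, CPS1 was at 1315 and 1206 in NTG and at 1755, 1699 and 1528 with siMCRS1, and with EPZ-6438 at 1319, 1229 and 1303 and at 2082 and 1860.4. Control libraries lay below siRNA libraries throughout. The CPS1 log2 changes were 0.58 ± 0.09 and 0.70 ± 0.09 with siINO80#1 and siINO80#2 and 0.40 ± 0.10 and 0.62 ± 0.10 with siMCRS1 under DMSO and EPZ-6438. For CPS1 the siMCRS1 call in DMSO call was lost with libraries set to the same total or without DMSO NTG 3 (adjusted p from 0.0796 to 0.241).

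ARG1, the cytosolic arginase of liver, was low and uneven. ARG1 was at 62.5, 14.4 and 55.7 normalized counts in the NTG libraries, at 21.5, 4.96 and 16.6 with siINO80#1 and at 2.24, 9.96 and 2.83 with siINO80#2. With DMSO, ARG1 was at 23.0 and 14.3 in NTG and at 25.6, 7.71 and 10.0 with siMCRS1, and with EPZ-6438 at 23.7, 17.1 and 16.8 and at 16.8 and 10.7. The NTG library lettered B was far below the other NTG libraries and lay within the range of siINO80#1. ARG1 was called lower with siINO80#2 (-2.89 ± 0.69 (adjusted p = 0.00446)) and not with siINO80#1 (-1.52 ± 0.69 (adjusted p = 0.102)) or siMCRS1 (-0.49 and -0.47), and it passed with siINO80#1 with DESeq2 or without NTG B (adjusted p from 0.028 to 0.0387). The siINO80#2 mean of ARG1, 5.01, was under the filter, which ARG1 passed through the other groups (means of 44.2 in NTG and 14.3 with siINO80#1). Per kilobase ARG2 made up 89.3 to 97.9% of the arginase pair in NTG, 98.6 to 99.7% with siINO80#1 and 99.5 to 99.9% with siINO80#2. NAGS makes the N-acetylglutamate that CPS1 needs. NAGS was at 167, 188 and 198 normalized counts in the NTG libraries, at 182, 208 and 234 with siINO80#1 and at 228, 166 and 209 with siINO80#2. With DMSO, NAGS was at 141 and 191 in NTG and at 89.0, 82.6 and 119 with siMCRS1, and with EPZ-6438 at 134, 164 and 147 and at 58.4 and 66.6. Libraries of the first experiment overlapped, and in the second every siMCRS1 library was below its controls. NAGS was called lower under siMCRS1 in DMSO (-0.77 ± 0.22 (adjusted p = 0.0145)) and in EPZ-6438 (-1.23 ± 0.22 (adjusted p = 0.000859)), and changed by 0.17 ± 0.14 and 0.11 ± 0.14 with the INO80 siRNAs, neither called. For NAGS the siMCRS1 call in DMSO call was lost with quantile normalization or without DMSO NTG 3 or DMSO siMCRS1 2 (adjusted p from 0.0501 to 0.147).

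The carriers that link the mitochondrial and cytosolic steps moved little. SLC25A15 was at 468, 446 and 453 normalized counts in the NTG libraries, at 447, 399 and 392 with siINO80#1 and at 381, 367 and 281 with siINO80#2. With DMSO, SLC25A15 was at 1021 and 856 in NTG and at 1191, 1206 and 937 with siMCRS1, and with EPZ-6438 at 1087, 819.8 and 859.9 and at 1294 and 1078. SLC25A15, the ornithine and citrulline carrier, was called lower only with siINO80#2 (-0.42 ± 0.12 (adjusted p = 0.0109)), among the 4 siRNA comparisons. SLC25A13 was at 2847, 2995 and 2836 normalized counts in the NTG libraries, at 2394, 2358 and 2396 with siINO80#1 and at 2394, 2481 and 2281 with siINO80#2. With DMSO, SLC25A13 was at 6082 and 5133 in NTG and at 5740.1, 6209 and 5261 with siMCRS1, and with EPZ-6438 at 5867, 5289 and 5189 and at 5902 and 6019.6. SLC25A13, or citrin, which exports aspartate, was called lower with both INO80 siRNAs (-0.28 ± 0.06 and -0.28 ± 0.06) and changed by 0.03 ± 0.11 and 0.13 ± 0.11 with siMCRS1, neither called. SLC25A15 passed the test as higher for siMCRS1 under EPZ-6438 without EPZ-6438 NTG 1 (adjusted p = 0.0268).

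**Figure D3:**
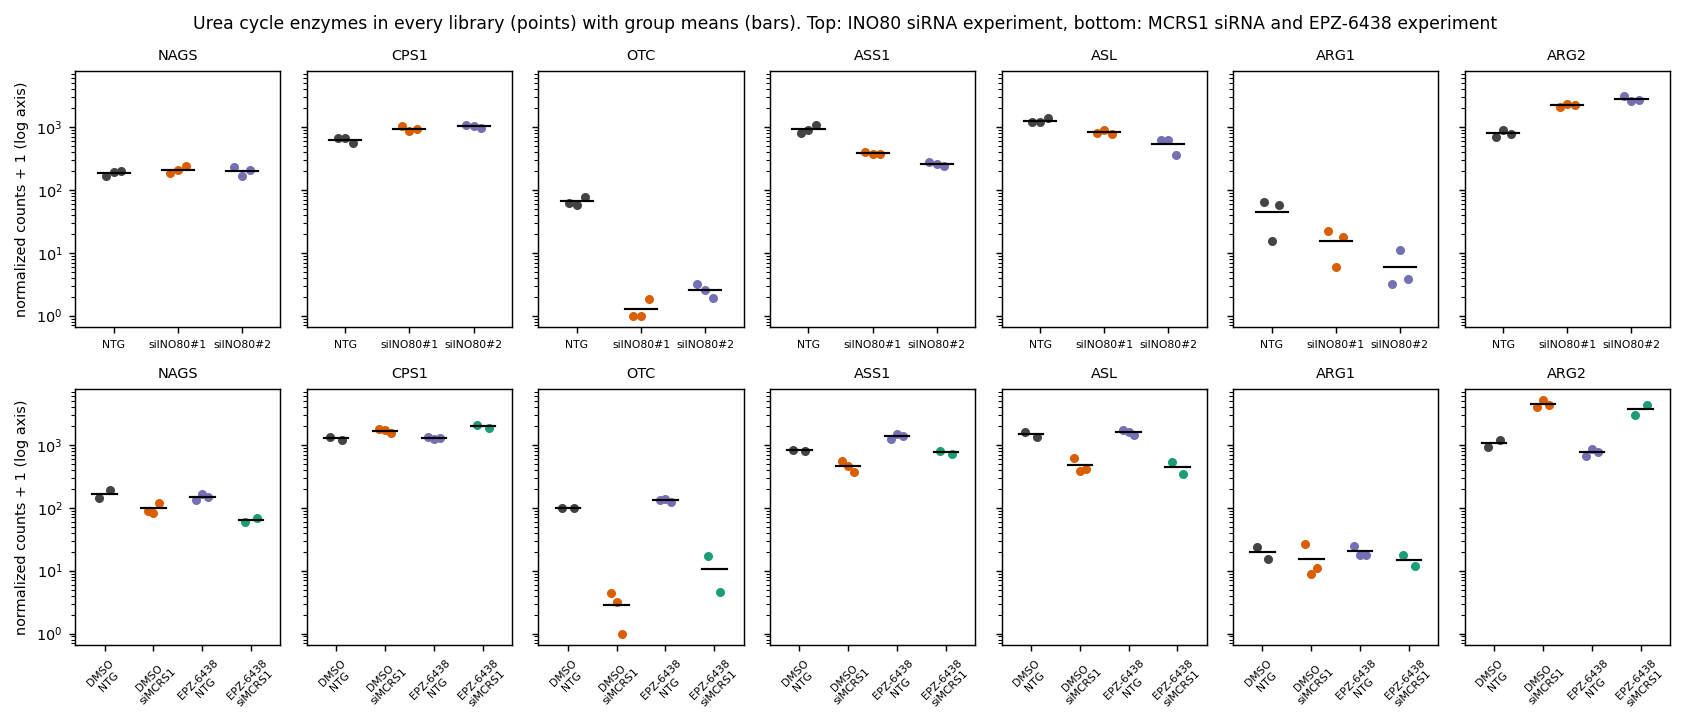
Normalized counts + 1 (log axis) of the 7 urea cycle enzymes are plotted for each library (points) with the group mean (bar), for NTG, siINO80#1 and siINO80#2 in the top row and the 4 drug and siRNA groups in the bottom row. OTC drops from 56.5 or more in controls to 16.0 or less with any siRNA, ARG2 rises in every siRNA group, and ARG1 spreads widely within NTG.

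Among the enzymes that pass nitrogen to and from glutamate, the 2 siRNAs against INO80 differed at GLUD1. GLUD1 was at 14191, 13914 and 14824 normalized counts in the NTG libraries, at 12797, 11078 and 13049.6 with siINO80#1 and at 5912, 6849.6 and 4642 with siINO80#2. With DMSO, GLUD1 was at 23983 and 19694 in NTG and at 24283, 22907 and 18106 with siMCRS1, and with EPZ-6438 at 20433, 19434 and 17482 and at 25326 and 23414. The siINO80#2 libraries lay below all others of that experiment. GLUD1 fell by 1.32 on the log2 scale with siINO80#2 (adjusted p = 1.07e-05), its change with siINO80#1 was -0.22 ± 0.13 (adjusted p = 0.191), and siINO80#2 was below siINO80#1 by a log2 difference of -1.10 ± 0.13 (adjusted p = 0.000367). Without siINO80#2 library C these siINO80#2 differences were -1.17 and -0.95. GLUD1 changed by -0.01 ± 0.14 and 0.35 ± 0.14 with siMCRS1, neither called by limma. GLUD1 passed the test as lower for siINO80#1 with only the groups compared (adjusted p = 0.0342), and as lower for siMCRS1 in DMSO with quantile normalization (adjusted p = 0.046), and as higher for siMCRS1 under EPZ-6438 with DESeq2 or with only the groups compared (adjusted p from 0.0291 to 0.0418). GLUD1 has 6 named pseudogenes, and the paralog GLUD2 averaged 4.74 normalized counts in NTG. GLS2, the liver glutaminase, was called lower only with siMCRS1 among the 4 comparisons. GLS2 was at 112, 107 and 90.2 normalized counts in the NTG libraries, at 83.5, 87.2 and 106 with siINO80#1 and at 112, 88.1 and 84.1 with siINO80#2. With DMSO, GLS2 was at 206 and 184 in NTG and at 89.0, 68.3 and 63.0 with siMCRS1, and with EPZ-6438 at 257, 305 and 203 and at 101 and 94.1. The GLS2 libraries overlapped in the first experiment and separated in the second, with log2 changes of -1.41 ± 0.22 (adjusted p = 0.000457) in DMSO and -1.36 ± 0.22 (adjusted p = 0.000416) in EPZ-6438.

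Of the alanine aminotransferases GPT was called lower in all 4 comparisons and GPT2 in 3. GPT was at 79.2, 71.9 and 86.4 normalized counts in the NTG libraries, at 42.9, 46.6 and 44.6 with siINO80#1 and at 39.3, 37.5 and 34.0 with siINO80#2. With DMSO, GPT was at 64.1 and 57.3 in NTG and at 33.4, 30.8 and 30.1 with siMCRS1, and with EPZ-6438 at 129, 101 and 131 and at 44.8 and 23.1. All siRNA libraries of GPT, the cytosolic form, were below their controls. Its log2 changes were -0.81 ± 0.16 and -1.08 ± 0.16 with siINO80#1 and siINO80#2 and -0.93 ± 0.29 and -1.86 ± 0.29 with siMCRS1 under DMSO and EPZ-6438. For GPT the siMCRS1 call in DMSO call was lost with quantile normalization or without DMSO NTG 1 or DMSO NTG 3 (adjusted p from 0.0627 to 0.118). GPT2, the mitochondrial form, was called lower with both INO80 siRNAs (-0.50 and -0.80) and with siMCRS1 in DMSO (-0.38), and changed by -0.32 in EPZ-6438, not called by limma. For GPT2 the siMCRS1 call in DMSO call was lost with no filter on low values or without DMSO NTG 1, DMSO siMCRS1 2 or DMSO siMCRS1 3 (adjusted p from 0.0585 to 0.264). GPT2 passed the test as lower for siMCRS1 under EPZ-6438 with libraries set to the same total, with quantile normalization, with edgeR, with DESeq2 or without EPZ-6438 NTG 3 (adjusted p from 0.00173 to 0.0431). The mitochondrial aspartate aminotransferase GOT2 was called lower with both INO80 siRNAs (-0.45 and -0.50) and changed by -0.34 and -0.23 with siMCRS1, not called. GOT2 passed the test as lower for siMCRS1 in DMSO with libraries set to the same total, with quantile normalization, with DESeq2 or without DMSO NTG 3 (adjusted p from 0.00321 to 0.0455), and as lower for siMCRS1 under EPZ-6438 with libraries set to the same total or with quantile normalization (adjusted p from 0.00496 to 0.00908). The cytosolic GOT1 was called in none of the 4, with log2 changes of 0.13 and -0.09 with siINO80#1 and siINO80#2 and 0.25 and 0.35 with siMCRS1 under DMSO and EPZ-6438. Per kilobase GOT2 made up 58.6 to 61.3% of this pair in NTG, 48.8 to 51.1% with siINO80#1 and 52.6 to 53.5% with siINO80#2, and 70.5 to 71.4% in DMSO NTG against 60.4 to 63.0% with siMCRS1.

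In tyrosine breakdown 3 of 4 members were called lower with siINO80#1, 4 with siINO80#2 and 2 with siMCRS1 in each treatment, beside 20.8, 28.4, 24.6 and 26.9% of all genes. HPD was at 4601, 4611 and 5322 normalized counts in the NTG libraries, at 2878, 2906 and 2990.0 with siINO80#1 and at 3056, 2684 and 2722 with siINO80#2. With DMSO, HPD was at 6873 and 5382 in NTG and at 4297, 3154 and 2852 with siMCRS1, and with EPZ-6438 at 6161, 7271 and 5954 and at 3784 and 2531. HPD, which makes homogentisate, was below its controls in every siRNA library, with log2 changes of -0.72 ± 0.08 and -0.78 ± 0.08 with siINO80#1 and siINO80#2 and -0.85 ± 0.21 and -1.06 ± 0.21 with siMCRS1 under DMSO and EPZ-6438. FAH, the last enzyme of the pathway, changed by -0.68 and -0.77 with siINO80#1 and siINO80#2 and -0.64 and -0.68 with siMCRS1 under DMSO and EPZ-6438, all called. For HPD the siMCRS1 call in DMSO call was lost without DMSO NTG 1 (adjusted p = 0.0717). For FAH the siMCRS1 call in DMSO call was lost without DMSO NTG 1 (adjusted p = 0.123), and the siMCRS1 call in EPZ-6438 call was lost without EPZ-6438 siMCRS1 B (adjusted p = 0.0712). TAT, the first enzyme, was called lower with siINO80#1 (-0.55, adjusted p = 0.042) and siINO80#2 (-0.81), and changed by -0.64 and -0.74 with siMCRS1, not called. For TAT the siINO80#1 call call was lost with no filter on low values or without NTG A, siINO80#1 A, NTG B, siINO80#1 B or NTG C (adjusted p from 0.0574 to 0.143). TAT passed the test as lower for siMCRS1 in DMSO with libraries set to the same total or without DMSO siMCRS1 1 (adjusted p from 0.0291 to 0.0388), and as lower for siMCRS1 under EPZ-6438 with libraries set to the same total, with DESeq2, with only the groups compared or without EPZ-6438 siMCRS1 A (adjusted p from 0.0165 to 0.0367). HGD, which opens the ring of homogentisate, was called lower with siINO80#2 (-0.62) and higher with siMCRS1 in EPZ-6438 (0.39). For HGD the siMCRS1 call in EPZ-6438 call was lost with libraries set to the same total, with quantile normalization or without EPZ-6438 NTG 2, EPZ-6438 NTG 3 or EPZ-6438 siMCRS1 A (adjusted p from 0.0593 to 0.351). HGD passed the test as lower for siINO80#1 with only the groups compared (adjusted p = 0.0369), and as higher for siMCRS1 in DMSO without DMSO siMCRS1 3 (adjusted p = 0.0344).

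In tryptophan breakdown AFMID and HAAO fell in all 4 comparisons. AFMID was at 2029.9, 1750.2 and 2214 normalized counts in the NTG libraries, at 1017, 922 and 1069 with siINO80#1 and at 667, 850.1 and 719.9 with siINO80#2. With DMSO, AFMID was at 2822 and 2597 in NTG and at 2398, 2039 and 1858 with siMCRS1, and with EPZ-6438 at 3221, 3274 and 3277 and at 2824 and 2112. AFMID, the kynurenine formamidase, had log2 changes of -0.99 ± 0.11 and -1.42 ± 0.11 with siINO80#1 and siINO80#2 and -0.38 ± 0.14 and -0.42 ± 0.14 with siMCRS1 under DMSO and EPZ-6438. For AFMID the siMCRS1 call in DMSO call was lost with no filter on low values or without DMSO NTG 1, DMSO NTG 3, DMSO siMCRS1 2 or DMSO siMCRS1 3 (adjusted p from 0.071 to 0.211), and the siMCRS1 call in EPZ-6438 call was lost without EPZ-6438 NTG 2, EPZ-6438 NTG 3 or EPZ-6438 siMCRS1 B (adjusted p from 0.0523 to 0.313). HAAO was at 267, 225 and 267 normalized counts in the NTG libraries, at 128, 85.3 and 118 with siINO80#1 and at 69.6, 87.3 and 83.1 with siINO80#2. With DMSO, HAAO was at 382 and 347 in NTG and at 157, 134 and 97.4 with siMCRS1, and with EPZ-6438 at 429, 578 and 529.8 and at 194 and 152. HAAO, which opens the ring of hydroxyanthranilate, had log2 changes of -1.21 ± 0.17 and -1.65 ± 0.17 with siINO80#1 and siINO80#2 and -1.51 ± 0.22 and -1.56 ± 0.22 with siMCRS1 under DMSO and EPZ-6438. For both genes each siRNA library was below each of its controls. KYNU, or kynureninase, was called lower with the INO80 siRNAs (-0.52 and -0.51) and higher with siMCRS1 (0.57 in DMSO and 0.57 under EPZ-6438). For KYNU the siMCRS1 call in DMSO call was lost with no filter on low values, with libraries set to the same total, with quantile normalization or without DMSO NTG 1, DMSO NTG 3, DMSO siMCRS1 2 or DMSO siMCRS1 3 (adjusted p from 0.0587 to 0.183), and the siMCRS1 call in EPZ-6438 call was lost with no filter on low values, with libraries set to the same total, with quantile normalization or without EPZ-6438 NTG 1, EPZ-6438 NTG 3 or EPZ-6438 siMCRS1 B (adjusted p from 0.0525 to 0.418). KMO, the monooxygenase between them, was at 3.34 to 27.7 normalized counts and was not called in the first experiment, where it was tested.

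Methionine metabolism held the deepest fall after OTC with either INO80 siRNA. BHMT was at 502, 391 and 632 normalized counts in the NTG libraries, at 29.8, 39.7 and 47.2 with siINO80#1 and at 26.9, 25.3 and 32.1 with siINO80#2. With DMSO, BHMT was at 874 and 684 in NTG and at 142, 129 and 90.2 with siMCRS1, and with EPZ-6438 at 2045, 1790.3 and 1905 and at 406 and 212. BHMT remethylates homocysteine with betaine, and every siRNA library lay below every control library of its comparison. The BHMT log2 changes were -3.67 ± 0.22 (adjusted p = 1.44e-06) with siINO80#1, -4.11 ± 0.22 (adjusted p = 3.2e-07) with siINO80#2, -2.70 ± 0.26 (adjusted p = 3.84e-05) with siMCRS1 in DMSO and -2.70 ± 0.26 (adjusted p = 2.15e-05) under EPZ-6438. BHMT2, its neighbouring paralog, averaged 792 in NTG, 421 with siINO80#1 and 396.5 with siINO80#2. GNMT, which uses S-adenosylmethionine to methylate glycine, was at 1.11 to 47.3 normalized counts and was lower in each comparison (-2.22 and -2.94 with siINO80#1 and siINO80#2 and -2.75 and -3.20 with siMCRS1 under DMSO and EPZ-6438). It passed the filter through its control libraries and overlaps the readthrough gene CNPY3-GNMT.

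MAT1A was at 3105, 2911 and 3389.9 normalized counts in the NTG libraries, at 1046, 906 and 985 with siINO80#1 and at 656, 829 and 494 with siINO80#2. With DMSO, MAT1A was at 4643 and 3135 in NTG and at 2495, 1571 and 1299 with siMCRS1, and with EPZ-6438 at 4116, 4058 and 3919 and at 2473 and 1496. MAT1A, the S-adenosylmethionine synthetase of adult liver, was below its controls in every siRNA library, with log2 changes of -1.68 ± 0.15 and -2.28 ± 0.15 with siINO80#1 and siINO80#2 and -1.15 ± 0.27 and -1.07 ± 0.27 with siMCRS1 under DMSO and EPZ-6438. For MAT1A the siMCRS1 call in DMSO call was lost without DMSO NTG 1 (adjusted p = 0.073), and the siMCRS1 call in EPZ-6438 call was lost without EPZ-6438 siMCRS1 B (adjusted p = 0.102). MAT2A, the form of other tissues, was called higher with the INO80 siRNAs (0.45 ± 0.09 and 0.31 ± 0.09), and the second of these calls was lost when libraries were set to the same total. With siMCRS1 it changed by -0.02 ± 0.18 and 0.18 ± 0.18, not called. Per kilobase, MAT2A made up 54.2 to 61.7% of the pair in NTG, 85.6 to 86.5% with siINO80#1 and 86.5 to 91.7% with siINO80#2. With DMSO its share was 69.1 to 78.2% in NTG and 82.3 to 90.2% with siMCRS1, and with EPZ-6438 it was 62.0 to 69.8% and 81.0 to 84.8%. In each comparison the shares of siRNA and control libraries did not overlap.

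The transsulfuration enzymes parted. CTH was at 287, 379 and 310.1 normalized counts in the NTG libraries, at 186, 196 and 184 with siINO80#1 and at 147, 157 and 135 with siINO80#2. With DMSO, CTH was at 366 and 401 in NTG and at 511, 598 and 610.2 with siMCRS1, and with EPZ-6438 at 316, 328 and 317 and at 465 and 659. CTH, which releases cysteine, was below its controls with the INO80 siRNAs and above them with siMCRS1. The CTH log2 changes were -0.77 ± 0.12 and -1.14 ± 0.12 with siINO80#1 and siINO80#2 and 0.58 ± 0.16 and 0.79 ± 0.16 with siMCRS1 under DMSO and EPZ-6438, all called. For CTH the siMCRS1 call in DMSO call was lost with libraries set to the same total or without DMSO NTG 1 (adjusted p from 0.0902 to 0.1). CBS, the enzyme before it, was called lower in all 4 (-0.67 and -0.29 with siINO80#1 and siINO80#2 and -0.83 and -0.88 with siMCRS1 under DMSO and EPZ-6438), though its siINO80#2 and NTG libraries overlapped. For CBS the siINO80#2 call call was lost with only the groups compared or without siINO80#2 A, NTG B, NTG C or siINO80#2 C (adjusted p from 0.0576 to 0.123), and the siMCRS1 call in DMSO call was lost without DMSO NTG 1 or DMSO NTG 3 (adjusted p from 0.058 to 0.075), and the siMCRS1 call in EPZ-6438 call was lost without EPZ-6438 siMCRS1 B (adjusted p = 0.133). CBS has a near-identical copy, CBSL, whose values were 0 to 35.5, so its reads could be divided between the copies. AHCY, which hydrolyses S-adenosylhomocysteine, changed by 0.03 and -0.06 with the INO80 siRNAs, neither called, and was called higher only with siMCRS1 in EPZ-6438 (0.51) among the 4 comparisons. For AHCY the siMCRS1 call in EPZ-6438 call was lost with no filter on low values, with libraries set to the same total, with quantile normalization or without EPZ-6438 NTG 3, EPZ-6438 siMCRS1 A or EPZ-6438 siMCRS1 B (adjusted p from 0.0623 to 0.578). AHCY passed the test as higher for siMCRS1 in DMSO without DMSO NTG 1 (adjusted p = 0.0453).

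**Figure D4:**
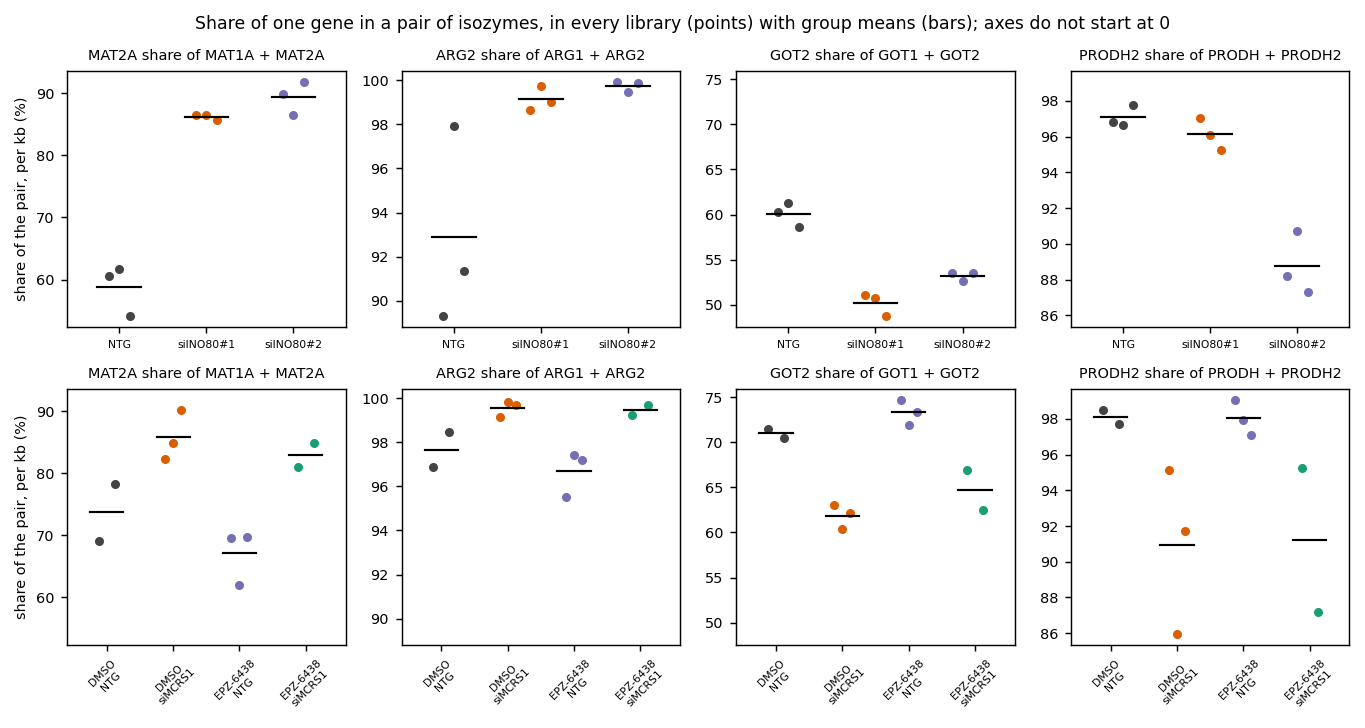
The share of 1 gene in a pair of isozymes, from normalized counts per kilobase, is plotted in percent for each library (points) with the group mean (bar), with axes that do not start at 0. MAT2A moves from 54.2 to 61.7% of the MAT pair in NTG to 85.6 to 91.7% with the INO80 siRNAs, and GOT2 moves down in every siRNA group.

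Of the 3 genes of proline and hydroxyproline breakdown PRODH2 and ALDH4A1 fell in all 4 comparisons. PRODH2 was at 454, 354 and 509.8 normalized counts in the NTG libraries, at 156, 114 and 164 with siINO80#1 and at 72.9, 94.96 and 43.5 with siINO80#2. With DMSO, PRODH2 was at 639 and 437 in NTG and at 102, 45.2 and 53.0 with siMCRS1, and with EPZ-6438 at 967, 751 and 839 and at 96.8 and 36.4. PRODH2, the hydroxyproline dehydrogenase, was far below its controls in every siRNA library, with log2 changes of -1.60 ± 0.26 (adjusted p = 0.000722), -2.68 ± 0.26 (adjusted p = 1.22e-05), -3.06 ± 0.41 (adjusted p = 0.000203) and -3.81 ± 0.41 (adjusted p = 3.75e-05) in the order of the comparisons above. ALDH4A1 was at 3373, 3237 and 3709 normalized counts in the NTG libraries, at 2234, 2259 and 2443 with siINO80#1 and at 1881, 2023 and 1445 with siINO80#2. With DMSO, ALDH4A1 was at 5203 and 3787 in NTG and at 2729, 2312 and 2004 with siMCRS1, and with EPZ-6438 at 4909.6, 4905 and 4006 and at 2157 and 1793. ALDH4A1, which completes the oxidation to glutamate, showed no overlap either, with log2 changes of -0.57 ± 0.11 and -0.96 ± 0.11 with siINO80#1 and siINO80#2 and -0.93 ± 0.17 and -1.22 ± 0.17 with siMCRS1 under DMSO and EPZ-6438. PRODH, the proline dehydrogenase, was low (6.94 to 37.8 normalized counts) and was called lower with siINO80#1 (-1.09) and with siMCRS1 in EPZ-6438 (-1.50). For PRODH the siINO80#1 call call was lost with DESeq2 or without NTG A, siINO80#1 A or siINO80#1 B (adjusted p from 0.0617 to 0.0717), and the siMCRS1 call in EPZ-6438 call was lost without EPZ-6438 NTG 3, EPZ-6438 siMCRS1 A or EPZ-6438 siMCRS1 B (adjusted p from 0.054 to 0.0698). The group means called lower, 8.78 and 7.59, were under the filter, which PRODH passed through other groups.

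Of the enzymes of glyoxylate and serine, AGXT fell in all 4 comparisons. AGXT was at 375, 298 and 587 normalized counts in the NTG libraries, at 111, 87.2 and 134 with siINO80#1 and at 52.7, 86.5 and 48.2 with siINO80#2. With DMSO, AGXT was at 263 and 249 in NTG and at 79.0, 43.0 and 30.1 with siMCRS1, and with EPZ-6438 at 557, 459.6 and 831 and at 107 and 45.3. AGXT, the peroxisomal aminotransferase that removes glyoxylate, showed no overlap between siRNA and control libraries, with log2 changes of -1.88 ± 0.28 and -2.72 ± 0.28 with siINO80#1 and siINO80#2 and -2.43 ± 0.43 and -3.08 ± 0.43 with siMCRS1 under DMSO and EPZ-6438. AGXT2, its mitochondrial relative, was at 8.92, 1.03 and 8.64 in NTG and held 2 reads together with siINO80#1 against 18, a ratio of 9.24 with a counting interval of 2.21 to 82.1. With siINO80#2 it held 0 reads and was at least 6.71-fold lower, if 3 reads over the group are the floor and the NTG reads are taken as exact. The error of the NTG reads is not in that value, and the NTG library at 1.03 was itself below 3 reads. AGXT2 was called lower under siMCRS1 in DMSO (-2.51) and in EPZ-6438 (-3.32), where it passed the filter through its control libraries (means of 10.99 and 30.2 against 1.48 and 2.09 with siMCRS1). SDS, the serine dehydratase, was at 1.60 to 11.9 normalized counts and was not tested.

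In histidine breakdown HAL, the histidine ammonia-lyase, was at 113, 23.6 and 116 in NTG, with library B low as for ARG1, and was not called by limma in any of the 4 comparisons (-0.99 and -1.61 with siINO80#1 and siINO80#2 and -0.71 and -0.997 with siMCRS1 under DMSO and EPZ-6438). HAL passed the test as lower for siINO80#1 without NTG B (adjusted p = 0.0461), and as lower for siINO80#2 with edgeR, with DESeq2, with only the groups compared or without NTG B or siINO80#2 B (adjusted p from 0.00491 to 0.0479), and as lower for siMCRS1 in DMSO without DMSO siMCRS1 1 (adjusted p = 0.0234), and as lower for siMCRS1 under EPZ-6438 with only the groups compared (adjusted p = 0.0423). UROC1, the urocanate hydratase that follows, was at 0 to 49.4 normalized counts and was called lower under siMCRS1 in DMSO (-2.64, adjusted p = 0.0252) and in EPZ-6438 (-3.76). UROC1 passed the filter in the second experiment through its control libraries. For UROC1 the siMCRS1 call in DMSO call was lost with a pseudocount of 0.1, with quantile normalization or without DMSO NTG 1, DMSO NTG 3 or DMSO siMCRS1 1 (adjusted p from 0.0669 to 0.127), and the siMCRS1 call in EPZ-6438 call was lost without EPZ-6438 siMCRS1 B (adjusted p = 0.0517).

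In the glycine cleavage system AMT, the aminomethyltransferase, fell throughout. AMT was at 473, 482 and 535 normalized counts in the NTG libraries, at 321, 325 and 315 with siINO80#1 and at 228, 239.7 and 199 with siINO80#2. With DMSO, AMT was at 715 and 597 in NTG and at 345, 198 and 229 with siMCRS1, and with EPZ-6438 at 767, 766 and 711 and at 314 and 186. Its siRNA and control libraries did not overlap, and the AMT log2 changes were -0.63 ± 0.10 and -1.16 ± 0.10 with siINO80#1 and siINO80#2 and -1.38 ± 0.25 and -1.62 ± 0.25 with siMCRS1 under DMSO and EPZ-6438. AMT overlaps NICN1 in the annotation. GLDC, the decarboxylase, was called lower with both INO80 siRNAs (-0.39 and -0.71) and changed by -0.37 and -0.26 with siMCRS1, not called. GLDC passed the test as lower for siMCRS1 in DMSO with libraries set to the same total, with quantile normalization, with DESeq2 or without DMSO NTG 3 or DMSO siMCRS1 1 (adjusted p from 0.00465 to 0.0468), and as lower for siMCRS1 under EPZ-6438 with libraries set to the same total or with quantile normalization (adjusted p from 0.0113 to 0.012). GCSH, the lipoate carrier, was called lower with siINO80#2 (-0.52) and higher with siMCRS1 in EPZ-6438 (0.40). For GCSH the siMCRS1 call in EPZ-6438 call was lost with no filter on low values, with libraries set to the same total, with quantile normalization, with edgeR, with only the groups compared or without EPZ-6438 NTG 2, EPZ-6438 NTG 3, EPZ-6438 siMCRS1 A or EPZ-6438 siMCRS1 B (adjusted p from 0.0565 to 0.442).

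Of the 4 branched-chain members 2 were called lower with siINO80#1, beside 20.8% of all genes, and 4 with siINO80#2 and with siMCRS1 in each treatment, beside 28.4, 24.6 and 26.9%. BCKDHB was at 321, 278 and 339 normalized counts in the NTG libraries, at 180.0, 171 and 178 with siINO80#1 and at 179, 187 and 164 with siINO80#2. With DMSO, BCKDHB was at 622 and 637 in NTG and at 368, 276 and 288 with siMCRS1, and with EPZ-6438 at 785, 702 and 693 and at 382 and 292. BCKDHB and BCKDHA encode the subunits of the decarboxylase of the branched-chain ketoacid dehydrogenase. BCKDHA was at 116, 111 and 85.4 normalized counts in the NTG libraries, at 50.1, 59.5 and 89.2 with siINO80#1 and at 33.7, 74.3 and 12.3 with siINO80#2. With DMSO, BCKDHA was at 172 and 113 in NTG and at 46.7, 33.0 and 74.5 with siMCRS1, and with EPZ-6438 at 274, 166 and 187 and at 42.4 and 50.6. BCKDHA libraries varied widely, from 12.3 to 74.3 within siINO80#2, while BCKDHB was even within groups. The BCKDHB log2 changes were -0.82 ± 0.11 and -0.82 ± 0.11 with siINO80#1 and siINO80#2 and -1.03 ± 0.16 and -1.12 ± 0.16 with siMCRS1 under DMSO and EPZ-6438, all called. BCKDHA was called with siINO80#2 (-1.68 ± 0.50 (adjusted p = 0.0145)) and siMCRS1 (-1.50 ± 0.34 and -2.12 ± 0.34) and not with siINO80#1 (-0.67 ± 0.50). Without siINO80#2 library C its siINO80#2 change was -1.03. For BCKDHA the siMCRS1 call in DMSO call was lost without DMSO NTG 1 (adjusted p = 0.0604). BCKDHA passed the test as lower for siINO80#1 with only the groups compared (adjusted p = 0.0317).

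DBT, the acyltransferase of the same complex, was called lower in all 4 (-0.74 and -0.78 with siINO80#1 and siINO80#2 and -0.95 and -0.75 with siMCRS1 under DMSO and EPZ-6438). IVD was at 1180.0, 1208 and 1179.9 normalized counts in the NTG libraries, at 879.9, 945 and 926 with siINO80#1 and at 649.5, 654 and 402 with siINO80#2. With DMSO, IVD was at 2455 and 2012 in NTG and at 1027, 789 and 802 with siMCRS1, and with EPZ-6438 at 2575, 2194 and 2288 and at 1059 and 729. IVD, which acts next on leucine, was called lower with siINO80#2 (-1.10 ± 0.16) and siMCRS1 (-1.36 ± 0.18 and -1.42 ± 0.18), and changed by -0.38 ± 0.16 (adjusted p = 0.0777) with siINO80#1, not called although no library overlapped NTG. IVD passed the test as lower for siINO80#1 with quantile normalization, with DESeq2 or with only the groups compared (adjusted p from 0.000703 to 0.0423). In lysine breakdown AASS was called lower with siINO80#2 (-0.64) and with siMCRS1 in EPZ-6438 (-0.48). For AASS the siMCRS1 call in EPZ-6438 call was lost with no filter on low values, with quantile normalization, with only the groups compared or without EPZ-6438 NTG 2, EPZ-6438 NTG 3 or EPZ-6438 siMCRS1 B (adjusted p from 0.0512 to 0.262). AASS passed the test as lower for siMCRS1 in DMSO with libraries set to the same total, with DESeq2 or with only the groups compared (adjusted p from 0.0123 to 0.0488). AADAT, which transaminates aminoadipate, changed by -0.21 and -0.03 with siINO80#1 and siINO80#2 and -0.18 and -0.08 with siMCRS1 under DMSO and EPZ-6438, none called. AADAT passed the test as lower for siINO80#1 with libraries set to the same total (adjusted p = 0.0404), and as lower for siMCRS1 in DMSO with libraries set to the same total (adjusted p = 0.037).

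The INO80 siRNAs were compared directly. Against siINO80#1, siINO80#2 had 1 member called higher, beside 9.48% of all genes, and 13 called lower, beside 12.6%. Without the siINO80#1 library lettered A the lower calls were 7 and the higher 0, and without that lettered C the lower calls were 7. Leaving out the siINO80#1 library lettered B gave 0 higher calls, and leaving out the siINO80#2 library lettered B gave 2. The largest of the called differences was GLUD1 (-1.10), followed by PRODH2 (-1.08 ± 0.26), IVD (-0.72 ± 0.16) and ASL (-0.68 ± 0.18). CBS was the member called higher (0.39 ± 0.10). GLUD1 and IVD kept the call in every setting. The PRODH2 call was lost without siINO80#1 A or siINO80#1 C. Both ASL and CBS lost theirs with libraries set to the same total and without siINO80#1 A or siINO80#1 B, and ASL also with only the groups compared. INO80 itself was lower with siINO80#2 than with siINO80#1 in every library (439.8 to 483 against 576 to 639), and its part in these differences was not tested.

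EPZ-6438 alone gave no called member. In NTG libraries 0 of 45 tested members passed, beside 0.384% of all genes. At an unadjusted p under 0.05 (limma) stood 9 of the 45 members, beside 2443 of all 14312 genes. edgeR called 1 (BHMT) and DESeq2 called 3 (ASS1, BHMT and AGXT). BHMT was at 874 and 684 in DMSO and at 2045, 1790.3 and 1905 in EPZ-6438, without overlap (1.30 ± 0.26 (adjusted p = 0.0684) by limma). ASS1 (0.74 ± 0.16 (adjusted p = 0.0737)) and AGXT (1.22 ± 0.43 (adjusted p = 0.191)) were higher in every EPZ-6438 library than in either DMSO library, and ARG2 was lower in every one (-0.48 ± 0.18 (adjusted p = 0.221)). Such separation was not particular to them. Other uncalled members also separated, among them GPT, CBS, AFMID, OTC and PRODH2 as higher and KYNU, CTH and GLDC as lower. The share of all genes that separated in this way was not counted.

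In siMCRS1 libraries EPZ-6438 against DMSO called 0 members by limma, beside 0.0908% of all genes, 0 by edgeR and 2 by DESeq2 (ASS1 and BHMT). At an unadjusted p under 0.05 (limma) stood 6 members, beside 1305 of all 14312 genes. BHMT differed there by 1.30 ± 0.26 (adjusted p = 0.116) and ASS1 by 0.74 ± 0.16 (adjusted p = 0.134). For the interaction of siMCRS1 with EPZ-6438 limma called 0 members, beside 0% of all genes, and edgeR and DESeq2 called 0. At an unadjusted p under 0.05 (limma) stood 1 member (GPT, chosen after its value was seen), beside 336 of all 14312 genes. For BHMT the interaction had a 95% interval of -0.82 to 0.82 on the log2 scale.

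**Figure D5:**
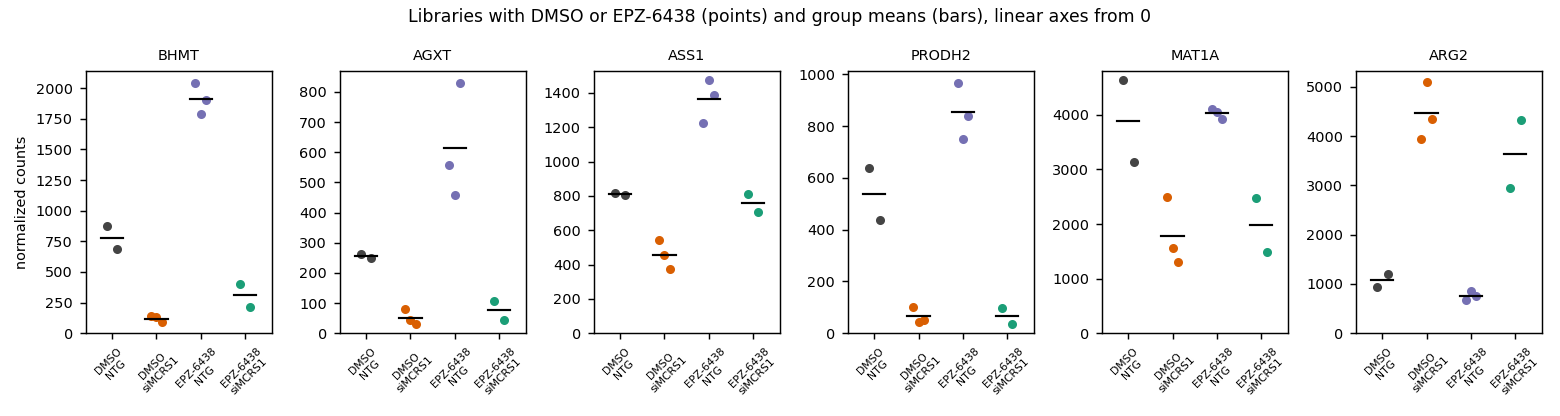
Normalized counts (linear axes from 0) of BHMT, AGXT, ASS1, PRODH2, MAT1A and ARG2 are plotted for each library (points) of the 4 drug and siRNA groups with the group mean (bar). BHMT stands at 684 to 874 with DMSO and 1790.3 to 2045 with EPZ-6438 in NTG, and at 90.2 to 142 and 212 to 406 with siMCRS1.

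The remaining genes of amino acid breakdown, 47 symbols outside the 48, were also mostly lower. Of these, 0 were called higher and 32 lower with siINO80#1, 1 and 37 with siINO80#2, 4 and 33 with siMCRS1 in DMSO and 4 and 33 under EPZ-6438, with medians of -0.53, -0.86, -0.84 and -0.87. Beside them stand 20.7% of all genes higher and 20.8% lower, 26.6 and 28.4%, 23.1 and 24.6%, and 26.8 and 26.9% in the same order. ALDH6A1, of valine breakdown, was lower in all 4 (-1.76 and -2.27 with siINO80#1 and siINO80#2 and -2.29 and -2.22 with siMCRS1 under DMSO and EPZ-6438), as was GATM, the first enzyme of creatine synthesis (-1.90 and -1.80 with siINO80#1 and siINO80#2 and -2.76 and -2.77 with siMCRS1 under DMSO and EPZ-6438). BCAT2, the mitochondrial branched-chain aminotransferase, was lower in all 4 (-1.22 and -2.39 with siINO80#1 and siINO80#2 and -1.94 and -2.30 with siMCRS1 under DMSO and EPZ-6438), while BCAT1, the cytosolic form, was called lower with the INO80 siRNAs (-0.51 and -0.25) and higher with siMCRS1 (0.60 and 0.56). OAT, which links ornithine to proline, was called higher with siMCRS1 (0.69 and 0.97) and not with the INO80 siRNAs (0.22 and -0.04).

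Hepatocyte identity was checked only with 8 secreted protein genes (ALB, APOA1, APOB, TTR, SERPINA1, AFP, TF and FGB), all detected. The transcription factor HNF4A is given further below. Their summed level was 710812 to 875388 normalized counts in NTG, 816941 to 1008820 with siINO80#1 and 576250 to 791267 with siINO80#2. In the second experiment it was 935297 to 1074040 in DMSO NTG, 1002430 to 1216980 with siMCRS1, and 1037080 to 1144500 and 1181370 to 1315690 under EPZ-6438. None was called with siINO80#1 (limma, 2 at an unadjusted p under 0.05, beside 6944 of 14034 genes), beside 20.7% of all genes higher and 20.8% lower. None was called with siMCRS1 in DMSO (0 at an unadjusted p under 0.05, beside 7812 of 14312 genes), beside 23.1 and 24.6%. With siINO80#2, 4 were called lower (ALB, APOA1, TTR and TF), beside 28.4% of all genes. With siMCRS1 in EPZ-6438, 1 was called higher (ALB), beside 26.8%. Of 10 markers of other cell types KRT5 was at 0 to 1.05 in all libraries. Their summed level, mostly LYZ, was 37968 to 42517 in NTG, 40046 to 46051 with siINO80#1 and 50421 to 56944 with siINO80#2, and 53746 to 71096 in DMSO NTG 39041 to 61272 with siMCRS1, and 49320 to 65833 and 44871 to 58451 under EPZ-6438. In that list 7 genes were tested in the first experiment and 9 in the second. There 1 gene was called higher and 1 lower with siINO80#1, 3 and 2 with siINO80#2, 1 and 1 with siMCRS1 in DMSO and 2 and 2 under EPZ-6438. The shares of all genes were 20.7% higher and 20.8% lower, 26.6 and 28.4%, 23.1 and 24.6%, and 26.8 and 26.9% in the same order. ACTA2, a smooth muscle actin, was called lower in each of the 4 (879 in NTG, 266 with siINO80#1 and 417 with siINO80#2). Its siINO80#2 and NTG libraries overlapped. MYH11, a smooth muscle myosin, went the other way (68.9 in NTG, 134 with siINO80#1 and 200.4 with siINO80#2). MYH11 was called higher with both INO80 siRNAs and with siMCRS1 in EPZ-6438 (53.2 to 101). In DMSO its change with siMCRS1 was not called (62.6 to 114, adjusted p = 0.0586 by limma). COL1A1, a collagen chain, was called higher with siMCRS1 (247 to 623 in DMSO and 92.2 to 626 under EPZ-6438) and lower with siINO80#2. The part of these differences in the members' changes was not tested.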

How the data were processed

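The data are mRNA sequencing libraries of HepG2 cells made with a stranded kit. For each experiment the authors deposited a table of signal, here read counts per gene scaled by a library size factor; kallisto, DESeq2 and GRCh38 are named in the submitters' processing notes, and the annotation and use of strand are not given in the sources used here. These libraries are not described in the paper. Dividing by the value of 1 read gave whole reads (within 0.01 read) for 100% of values. Floors and counting intervals (95%) cover counting error only.

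Groups came from the labels. Drug table columns were matched to groups by name, and all but EPZ-6438 siMCRS1 carry numbers in place of the labels' letters. Replicates differed beyond sampling noise in each of 17 pairs (chi-square per degree of freedom 9.45 to 121). Whether they were separate cultures is not stated, so p-values measure only the spread between these libraries, which may be technical.

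Values were tested as log2(value + 1) with limma 3.58.1 in R 4.3.3 (all groups of an experiment in 1 fit, trend), for genes with a mean of at least 10, at a Benjamini-Hochberg adjusted p under 0.05. edgeR 4.0.16 and DESeq2 1.42.0 were run on the recovered reads as alternatives, with other pseudocounts, filters, scalings, a replicate block and each library left out. The steps were tested only on counts simulated for siINO80#1 against NTG, with few genes changed and the same dispersion for all genes. That test does not cover changes in as many genes as were called here, or the smaller groups of the second experiment. Values in every library are given for urea cycle genes and for members called with an absolute log2 change of at least 1, a mean of at least 50 and no overlap. The members and lists were chosen with earlier results of these data known. Positions and promoters are from RefSeq (GRCh38.p14), and lengths are those of canonical transcripts in GENCODE. No p-value was computed over the list alone.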

Additional observations from a re-analysis of the deposited data

How the results depend on the processing

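Over 141 gene results and 2116 alternative values, 1992 kept their direction and side of the threshold, 124 kept their direction but lost the call and 0 turned. In every setting in which the gene was tested, 104 results held. Settings that left a gene untested were not counted. A filter at a mean of at least 50 removed the called members OTC, ARG1, GNMT and PRODH from the first experiment. In the second it removed GNMT, PRODH, UROC1 and AGXT2. For siINO80#2 against siINO80#1 the higher count of 1 became 2 at a mean of at least 50, with quantile normalization, with edgeR or with DESeq2, and 0 with libraries set to the same total; it ranged from 0 to 2 with a library left out, and the lower count of 13 from 7 to 17. For siMCRS1 in DMSO the higher count of 4 became 1 with the same total and ranged from 2 to 4 with a library left out, and the lower count of 25 from 16 to 27. For siMCRS1 in EPZ-6438 the higher count of 7 became 4 without the filter, 3 with the same total and 3 with quantile normalization, and ranged from 3 to 7. For EPZ-6438 in NTG the higher count of 0 became 2 with quantile normalization, 1 with edgeR, 3 with DESeq2 and 2 with only the groups compared; in siMCRS1 it became 2 with DESeq2. The cause was not tested. With a library left out, lower counts ranged from 23 to 27 with siINO80#1, 32 to 34 with siINO80#2 and 19 to 26 with siMCRS1 in EPZ-6438. Where this left 1 library in a group, it was assumed to vary like the others.

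With the letter as a replicate block 29 members were called with siINO80#1 and 36 with siINO80#2, the same genes as without it, and 15 in place of 14 between the siRNAs. Deviations from group means correlated by 0.10 on average between libraries of 1 letter (9 pairs, -0.08 to 0.26, 5 over 0.1) and by -0.05 between others. Each NTG library correlated best with the siINO80#1 library of its letter (0.25, 0.26 and 0.14 for A, B and C). The siINO80#2 library B correlated most with siINO80#1 C (0.10). For 2 of 9 libraries both of the 2 highest correlations were with the same letter. The main fit did not use the letters as pairs. The drug table could not be paired, since its columns carry numbers. Depth limited TDO2, SDS, KMO, UROC1 and AGXT2, which lay near a few reads in some or all groups.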

Other observations

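Genes that make amino acids, 11 listed and tested, were 0 higher and 10 lower with siINO80#1, 0 and 11 with siINO80#2, and 0 and 6 with siMCRS1 in each treatment. Of all genes tested 20.7% were higher and 20.8% lower with siINO80#1, 26.6 and 28.4% with siINO80#2, 23.1 and 24.6% with siMCRS1 in DMSO and 26.8 and 26.9% in EPZ-6438, which is the background for each list here. PHGDH, the first enzyme of serine synthesis, changed by -1.77 and -2.05 with siINO80#1 and siINO80#2 and -0.28 and -0.31 with siMCRS1 under DMSO and EPZ-6438, and ASNS, the asparagine synthetase, by -1.42 and -1.27 with siINO80#1 and siINO80#2 and 0.11 and 0.32 with siMCRS1 under DMSO and EPZ-6438. Only the INO80 siRNA changes of PHGDH and ASNS were called among these 4 comparisons. Of 14 amino acid transporters 12 were tested, with 4 higher and 6 lower with siINO80#1, 5 and 7 with siINO80#2, 5 and 4 with siMCRS1 in DMSO and 6 and 2 in EPZ-6438. SLC7A2, an arginine transporter, was called higher in all 4 (1.06 and 1.03 with siINO80#1 and siINO80#2 and 0.79 and 0.99 with siMCRS1 under DMSO and EPZ-6438). SLC7A11, the cystine transporter, was called lower with the INO80 siRNAs (-0.46 and -0.69) and higher with siMCRS1 (1.27 and 1.79).

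Of 15 regulators of these pathways 14 were tested, with 1 higher and 8 lower with siINO80#1, 0 and 10 with siINO80#2, 4 and 9 with siMCRS1 in DMSO and 1 and 9 in EPZ-6438. KLF15, a transcription factor of amino acid breakdown, was called lower in all 4 (-1.59 and -2.11 with siINO80#1 and siINO80#2 and -1.96 and -2.35 with siMCRS1 under DMSO and EPZ-6438). SIRT5, which removes acyl groups from mitochondrial proteins including CPS1, was lower in all 4 as well (-1.04 and -0.88 with siINO80#1 and siINO80#2 and -1.12 and -1.22 with siMCRS1 under DMSO and EPZ-6438). HNF4A, a hepatocyte transcription factor, changed by -0.45 and -1.02 with siINO80#1 and siINO80#2 and -0.55 and -0.55 with siMCRS1 under DMSO and EPZ-6438, all called. ATF4, a regulator of amino acid supply genes, was called lower with the INO80 siRNAs (-0.60 and -0.68) and higher with siMCRS1 in DMSO (0.29). The examples named here were chosen after their values were seen.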
